A study of Mus musculus with 12 samples.

Results

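The comparison described here sets the caudal cortex of AP2gamma knockout mice (KO) against the caudal cortex of wild-type mice (WT) at embryonic day 14. Its members were taken from the sample titles: 6 of the 12 arrays of the series, 3 KO arrays from animals 1, 2 and 13 and 3 WT arrays from animals 4, 6 and 14. The other 6 arrays held rostral cortex, KO from animals 7, 8 and 15 and WT from animals 10, 12 and 16, and they entered the fit to estimate the spread. Every array carried a different animal number, and no other allele or treatment is named for any group. How and in which cells the gene was deleted is not given in the sources used here, nor are strain and sex. Animal 13 on the KO side and animal 14 on the WT side carry later numbers than the rest, so each group held 1 late-numbered animal. Below, arrays are named by group and animal number, such as KO 13.

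AP2gamma is a transcription factor of the AP2 family and is encoded by Tfap2c. In the developing cortex, radial glia divide at the ventricle and give rise to basal progenitors, which divide again away from the ventricle and produce neurons, many of them for the upper cortical layers. Basal progenitors carry the T-box factor Eomes (Tbr2) and proneural factors of the Neurog and Neurod families, and AP2gamma is known from this lineage. The comparison asks which transcripts differ when the factor is missing in the caudal part of the cortex.

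Values are log2 signals as the authors deposited them, so a difference of 1 is a 2-fold change. The medians of the 12 arrays lay between 5.21 and 5.22. The table's overall median, 5.21, served as the floor for testing: 3 or more arrays of the 12 had to exceed it, which held for 11784 of 18193 named genes. Markers of embryonic cortex were present on all 6 caudal arrays: Tbr1, a marker of early neurons, read 8.66 to 9.37, Sox2, a progenitor factor, 10.56 to 11.08, and Pax6, a factor of radial glia, 9.85 to 10.04. The 6 caudal arrays did not differ by group alone. Xist, the transcript that coats an inactive X chromosome, read 11.32 in WT 6 and 3.50 to 5.48 on the other 5, and the Y-linked gene Eif2s3y read 0.20 in WT 6 and 8.55 to 8.84 on the others. The WT group therefore held 1 array with a female pattern and the KO group none. KO 13 and WT 14 also deviated from their group means alike, with a correlation of 0.39 across genes, which are not independent replicates. With 3 arrays per group, their number limits the precision of every value below, and the p-values measure the spread between these animals.

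Few genes stood apart from the spread between animals. In the limma fit over all 12 arrays, 0 of 11784 genes (0.0%) passed an adjusted p of 0.05 (Benjamini-Hochberg over all tested genes), 3 genes had an adjusted p under 0.10, and 478 had an unadjusted p under 0.05, of which 250 were lower in KO. With the late-numbered animals as an additive block, 4 genes (0.0339%) passed, and all 4 fell in KO: Tfap2c, Neurod4, Mt2 and Lgals7. Leaving out 1 array gave a call in 4 of 12 cases, 1 gene each: Mt2 without KO 1, Neurod4 without rostral KO 8, Kptn without WT 4 and Mdga2 without WT 14. A covariate that marks arrays with Xist above the table's median gave 1 call, Foxo3, which was higher in KO. It marks WT 4, at 5.48, together with WT 6, so that WT 14 is the only caudal WT array left unmarked. A covariate for the 2 arrays of the series with Xist above 10 gave 0 calls.

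Array by array, 433 genes (3.67%) had all 3 KO values below all 3 WT values and 453 genes (3.84%) had all 3 above. These counts are a description without a test. Were the 6 arrays ordered at random in each gene, 3 against 3 would separate at least as many. The counts alone therefore do not show a difference between the groups. The separations were mostly narrow. The median distance between the nearest KO and WT array was 0.06 log2 in both directions, and the median difference of means was -0.28 for the lower and 0.27 for the higher genes. A difference over 1 log2 was reached by 25 of the lower and 18 of the higher genes, and a gap over 0.5 by 10 of the lower and 5 of the higher genes. Of the genes with a gap over 0.5, the higher group lay wholly above the table's median for 6 of the 10 and 1 of the 5, and the genes described below were taken among such genes. The widest gaps outside that limit, chosen after their values were seen, were those of Aqp2, a water channel, higher at 5.35, 5.27 and 5.16 in KO against 3.56, 2.54 and 4.03 in WT, and of Flnc, a filamin, lower at 3.65, 4.06 and 3.56 against 5.36, 4.999 and 5.99. Each had at least 1 array of its higher group under the table's median. Leaving out 1 array can only keep or raise these counts, since fewer arrays have to be apart. Without KO 1, KO 2 or KO 13, 1154, 868 and 701 genes were lower with no overlap, and without WT 4, WT 6 or WT 14 932, 795 and 1586 were. The higher counts in the same order were 842, 697 and 1295, then 885, 1136 and 1243. Among lower genes, the KO array nearest to WT was KO 1 in 48.5% and the WT array nearest to KO was WT 14 in 47.3%. Among higher genes, KO 13 was the nearest KO array in 41.3%.

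**Figure D1:**
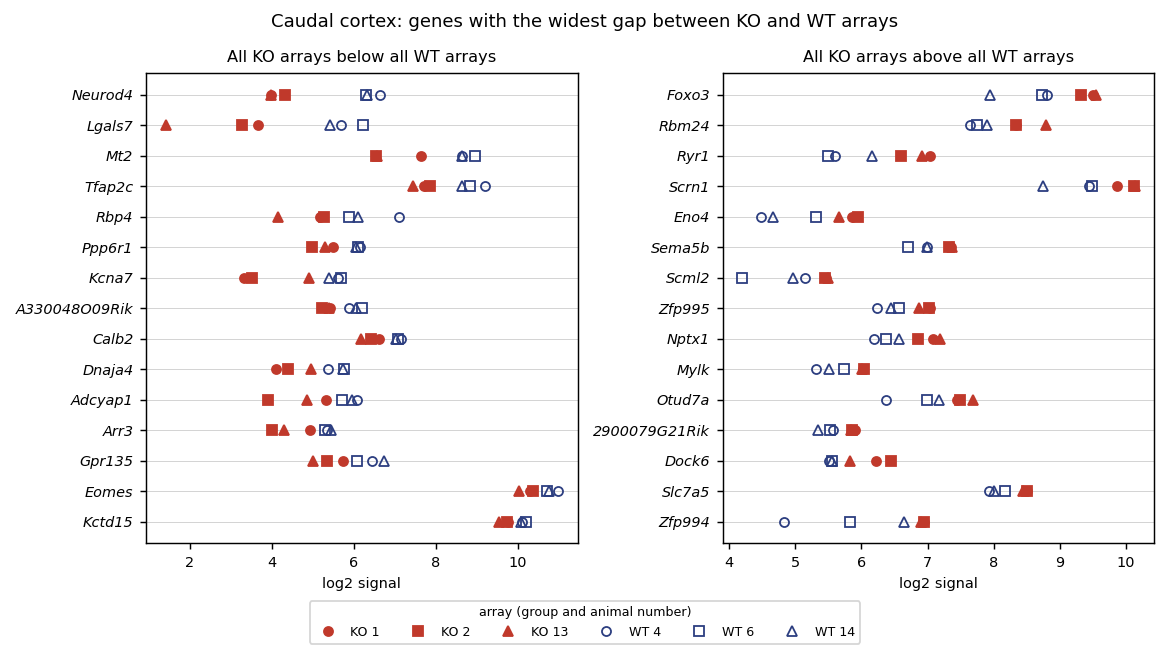
Log2 signal (x axis) of the 15 lower genes (left) and the 15 higher genes (right) with the widest gap between the nearest KO and WT array, sorted by gap, among genes whose higher group lies wholly above the table's median of 5.21. Each symbol is 1 array, filled for KO and open for WT; the gaps run from 1.98 to 0.34 on the left and from 0.51 to 0.26 on the right.

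Among genes whose higher group lay above the table's median, the widest gap belonged to Neurod4, a proneural transcription factor of the basic helix-loop-helix class. Its signal was 3.99, 4.33 and 3.99 in KO 1, KO 2 and KO 13 and 6.63, 6.31 and 6.31 in WT 4, WT 6 and WT 14. All 3 KO arrays lay under the median of the table and all 3 WT arrays above it, with 1.98 log2 between the nearest values. The difference was -2.31 ± 0.32 (SE, n = 3 and 3; limma adjusted p = 0.077), with an adjusted p of 0.033 under the late block and 0.0060 to 0.364 over 28 alternatives. Since Neurod4 was below the table's median in KO, the fold change is given as a bound, at least 2.30-fold lower, with measured means of 4.10 and 6.42. Both of its probe sets were separated.

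Tfap2c itself read 7.71, 7.86 and 7.44 in the KO arrays and 9.19, 8.84 and 8.64 in the WT arrays. No KO array reached the lowest WT array, and none fell to the median of the table. The difference was -1.22 ± 0.19 (limma adjusted p = 0.084; 0.0059 with the late block; range over 29 alternatives 0.0059 to 1), so 42.9% of the WT signal remained. All 3 probe sets of the gene were separated, but whether they lie in the deleted part is not given in the sources used here, so they do not check the deletion itself. Over all tested genes, 3.67% were lower with no overlap. Of the 5 tested members of a list of AP2 factors and their partners, 2 were, the first being Tfap2c itself. The second was Kctd15, a BTB-domain protein known to inhibit AP2 factors, at 9.74, 9.74 and 9.53 in KO and 10.10, 10.19 and 10.08 in WT, a difference of -0.45 ± 0.09 (limma adjusted p = 0.384). Tfap2d, another AP2 factor, overlapped between groups and differed by 0.01 ± 0.35.

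Eomes, the defining factor of basal progenitors, was lower in KO by a smaller amount. It read 10.30, 10.36 and 10.03 in KO and 10.97, 10.70 and 10.74 in WT. The groups did not overlap, and the gap of 0.34 was wider than the range within either group. The difference was -0.58 ± 0.12 (limma adjusted p = 0.377), a 1.49-fold lower mean, and both probe sets of the gene were separated.

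Metallothioneins, small proteins that bind zinc and copper, were lower on every KO array for 2 of the 3 members tested. Mt2 read 7.63, 6.54 and 6.57 in KO and 8.64, 8.94 and 8.64 in WT. KO 1 lay above the other KO arrays and still 1.01 below the nearest WT array. The difference was -1.83 ± 0.28 (limma adjusted p = 0.084; 0.038 with the late block, 0.0058 without KO 1, range over 29 alternatives 0.0058 to 1), a 3.55-fold lower mean. Mt1 read 7.61, 7.08 and 7.27 against 8.29, 8.38 and 7.88 and differed by -0.86 ± 0.22. Mt3, the form best known from brain, went the other way, at 9.76, 9.84 and 9.94 in KO and 8.68, 9.64 and 9.58 in WT, where WT 4 alone was far below the rest. The zinc transporter Tmem163 read 6.91, 6.42 and 6.49 in KO and 7.63, 7.74 and 7.22 in WT, a separation of 0.31 with a difference of -0.92 ± 0.17 (limma adjusted p = 0.210). Over the whole list of 23 tested metallothioneins and zinc transporters, 11 were lower and 12 higher, and the median was 0.02. With no overlap, 4 were lower and 2 higher, beside 3.67% and 3.84% of all tested genes.

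Lgals7, a galectin of stratified epithelia, had the largest mean difference of all tested genes. It read 3.66, 3.29 and 1.42 in KO and 5.68, 6.23 and 5.42 in WT. The WT values stood only a little above the median of the table, all KO values stood below it, and KO 13 was the lowest. The fitted difference was -2.99 ± 0.54 (limma adjusted p = 0.210; 0.038 with the late block; range over 28 alternatives 0.0380 to 1). As a bound, the gene was at least 1.48-fold lower, with measured means of 2.79 and 5.78.

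Promoters of 4 of these genes are shown, Neurod4, Lgals7 and Mt2 because they had the widest gaps of the genes named by the rule, with Tfap2c next, and Eomes because it defines the basal progenitor. The windows are the 250 bases before the start of the gene on the gene's strand, from RefSeq on the GRCm38.p6 build, which was used only for names and sequence. Neurod4 lies at chr10:130280255-130280504 on the minus strand, Lgals7 at chr7:28864136-28864385 on the plus strand, Eomes at chr9:118477939-118478188 on the plus strand and Mt2 at chr8:94172368-94172617 on the plus strand. Capitals mark the palindromic AP2 motif, spelled GCCNNNGGC or GCCNNNNGGC, which reads the same on both strands.
Neurod4: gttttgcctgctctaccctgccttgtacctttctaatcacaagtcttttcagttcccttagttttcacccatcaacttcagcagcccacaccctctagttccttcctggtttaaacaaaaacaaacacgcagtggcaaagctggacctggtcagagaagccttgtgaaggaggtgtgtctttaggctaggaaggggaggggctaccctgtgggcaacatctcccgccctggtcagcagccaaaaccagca
Lgals7: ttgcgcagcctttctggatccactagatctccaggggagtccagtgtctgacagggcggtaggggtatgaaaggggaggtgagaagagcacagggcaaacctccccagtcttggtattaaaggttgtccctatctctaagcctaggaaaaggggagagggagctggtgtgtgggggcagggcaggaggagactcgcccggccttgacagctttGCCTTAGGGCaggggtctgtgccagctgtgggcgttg
Eomes: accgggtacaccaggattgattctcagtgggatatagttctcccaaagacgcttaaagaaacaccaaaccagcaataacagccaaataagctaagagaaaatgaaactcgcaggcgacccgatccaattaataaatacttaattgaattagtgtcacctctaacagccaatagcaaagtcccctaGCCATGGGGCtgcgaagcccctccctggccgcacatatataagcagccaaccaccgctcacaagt
Mt2: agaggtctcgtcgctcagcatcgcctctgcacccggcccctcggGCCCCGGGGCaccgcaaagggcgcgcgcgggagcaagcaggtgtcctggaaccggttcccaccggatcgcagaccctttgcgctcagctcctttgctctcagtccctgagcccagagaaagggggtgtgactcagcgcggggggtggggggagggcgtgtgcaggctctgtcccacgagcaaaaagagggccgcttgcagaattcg
The Eomes window held 1 match, with its first base at -65 from the gene's start, the Mt2 window held 1, at -206, and the Lgals7 window held 1, at -37. The Neurod4 window held 0. Among the 15 lower genes with the widest gap, 13 had a window in the table and 6 of them (46.2%) held the motif, and among the 15 higher genes it was 4 of 13 (30.8%). Over all separated genes the motif was in 129 of 357 windows of lower genes (36.1%) and 124 of 372 of higher genes (33.3%), beside 3403 of 9562 (35.6%) for all tested genes. The shares for separated genes lay within 3 percentage points of that for all genes, and a match describes letters in this window, not a binding site.

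The remaining lower genes with wide gaps were mostly of low signal. Rbp4, the carrier of retinol, read 5.17, 5.28 and 4.14 in KO and 7.09, 5.89 and 6.11 in WT, a difference of -1.50 ± 0.36 (limma adjusted p = 0.689). KO 1 and KO 2 lay near the median of the table, KO 13 below it and the WT values above it. With values raised to that median the difference was -1.13. Calb2, the calcium buffer calretinin, read 6.60, 6.41 and 6.17 in KO and 7.14, 7.06 and 7.04 in WT, a tight WT group 0.44 above the highest KO array. Adcyap1, which encodes the neuropeptide PACAP, read 5.32, 3.92 and 4.86 against 6.07, 5.72 and 5.96. Here 2 KO arrays were below the table's median and the WT arrays were close together. Kcna7, a potassium channel, Dnaja4, a heat shock co-chaperone, and Arr3, the cone arrestin, were below 5.21 on every KO array and were at least 1.28-fold, 1.33-fold and 1.11-fold lower. Ppp6r1, a subunit of protein phosphatase 6, differed by -0.85 ± 0.24, the transcript A330048O09Rik by -0.69 ± 0.21 and Gpr135, an orphan receptor, by -1.06 ± 0.39. Of the 15 lower genes, 4 had more than 1 tested probe set. In all 4 every probe set was lower, and in 3 every probe set was separated. Genes that were low in KO passed the filter through their WT or rostral values, so the filter itself favoured a difference in them.

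Further lower genes had smaller gaps. Lmo4, a LIM-domain factor expressed in a regional pattern across the cortex, read 9.31, 9.15 and 8.89 in KO and 9.86, 9.70 and 9.57 in WT, a difference of -0.59 ± 0.12 (limma adjusted p = 0.285). Its groups were 0.26 apart at a high signal. Mrpl57, a protein of the mitochondrial ribosome and like Lmo4 among the 10 genes of smallest p, differed by -0.45 on 1 probe set, while its dimmer probe set differed by 0.06 in the other direction. Nrn1, which encodes the neurite growth factor neuritin, read 9.83, 9.79 and 9.77 in KO and 10.12, 10.08 and 10.08 in WT. Both groups were within 0.06 log2, and the difference was -0.30 ± 0.07 (limma adjusted p = 0.587).

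Among the 15 genes named on the higher side, whose KO arrays all lay above the table's median, the gaps ran from 0.26 to 0.51. Foxo3, a forkhead factor of stress and growth signalling, had the widest of these, at 9.51, 9.33 and 9.54 in KO and 8.81, 8.73 and 7.94 in WT. WT 14 was the low outlier of that group, and the difference was 0.96 ± 0.26 (limma adjusted p = 0.910; 0.0198 with the covariate for Xist above the median and 0.51 with that for Xist above 10; range over 29 alternatives 0.0198 to 1). Its second probe set overlapped between groups and differed by -0.12, so the separation rests on 1 of 2 probe sets. Rbm24, an RNA-binding regulator of splicing, read 8.34, 8.33 and 8.79 against 7.64, 7.75 and 7.90, again separated on only 1 of its 4 tested probe sets.

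Scrn1 and Ryr1 were higher on all of their probe sets. Scrn1, which encodes secernin 1, read 9.87, 10.12 and 10.14 in KO and 9.45, 9.49 and 8.75 in WT, a difference of 0.81 ± 0.17 (limma adjusted p = 0.377) over 3 separated probe sets. WT 14 lay below the other WT arrays. Ryr1, a calcium release channel, read 7.03, 6.59 and 6.92 against 5.60, 5.49 and 6.17, a difference of 1.09 ± 0.23 (limma adjusted p = 0.405). The nearest arrays were 0.43 apart, and both probe sets were separated.

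The other higher genes have no function in common by which they were chosen. Sema5b, a guidance semaphorin, read 7.35, 7.33 and 7.38 in KO and 6.98, 6.70 and 6.99 in WT. The KO arrays lay within 0.05 of each other, and the difference was 0.46 ± 0.14, with both probe sets separated. Nptx1, a secreted neuronal pentraxin, read 7.08, 6.85 and 7.19 against 6.19, 6.38 and 6.57, and Slc7a5, a transporter of large amino acids, 8.51, 8.50 and 8.44 against 7.94, 8.17 and 8.00. Their gaps, by which they were chosen, were 0.28 and 0.27, and their adjusted p-values in limma were 0.933 and 0.916. The zinc finger genes Zfp995 and Zfp994 differed by 0.56 ± 0.16 and 1.17 ± 0.44, and the WT values of the latter ran from 4.83 to 6.64. Eno4, an enolase of sperm, differed by 1.01 ± 0.31, Dock6, an exchange factor for small GTPases, by 0.63 ± 0.20, Otud7a, a deubiquitinase, by 0.70 ± 0.19, Mylk, the myosin light chain kinase, by 0.50 ± 0.24, and the transcript 2900079G21Rik by 0.39 ± 0.28. Scml2, a Polycomb protein, was below 5.21 on every WT array and was at least 1.20-fold higher in KO. Of the 15 higher genes, 10 had several tested probe sets. All probe sets were higher in 8 of them and separated in 5.

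The groups could also be read by animal number, with animals 1 and 2 against 4 and 6, and animal 13 against 14. Neurod4 differed by -2.31 among the first 4 arrays and by -2.32 between the late 2, Tfap2c by -1.23 and -1.20, Mt2 by -1.71 and -2.07, and Lgals7 by -2.48 and -4.004. Eomes differed by -0.51 and -0.72. For Scrn1 and Foxo3 the differences were 0.52 and 0.64 among the first 4 arrays and 1.38 and 1.60 between the late pair. Neurod4 and Tfap2c thus showed like sizes in both sets of arrays, and Scrn1 and Foxo3 were further apart between the late pair.

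Over all genes the first 4 arrays and the late pair had less in common. Of 51 genes lower by at least 1 with no overlap among the first 4 arrays, 37 (72.5%) were also lower between KO 13 and WT 14, and 19 of them by more than 1. Of 62 genes higher by at least 1, 37 (59.7%) were also higher between the late pair, 13 by more than 1. As a background, 57.0% of all genes lower among the first 4 arrays were also lower between the late pair. Of all genes higher among the first 4 arrays, 50.6% were also higher between the late pair. The late pair rests on a single array per side, and across all 11784 genes both differences correlated with r = 0.13 as a description. The 32 genes past 1 in both sets of arrays were chosen after their values were seen. They include Cyp26b1, which degrades retinoic acid, at 5.51, 3.65 and 3.96 in KO and 6.12, 5.97 and 5.58 in WT, and Trhr, the receptor of thyrotropin-releasing hormone, at 6.93, 5.98 and 6.71 against 5.08, 5.73 and 5.27. Neither gene's groups overlap, and Trhr is above the table's median on all 3 KO arrays.

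**Figure D2:**
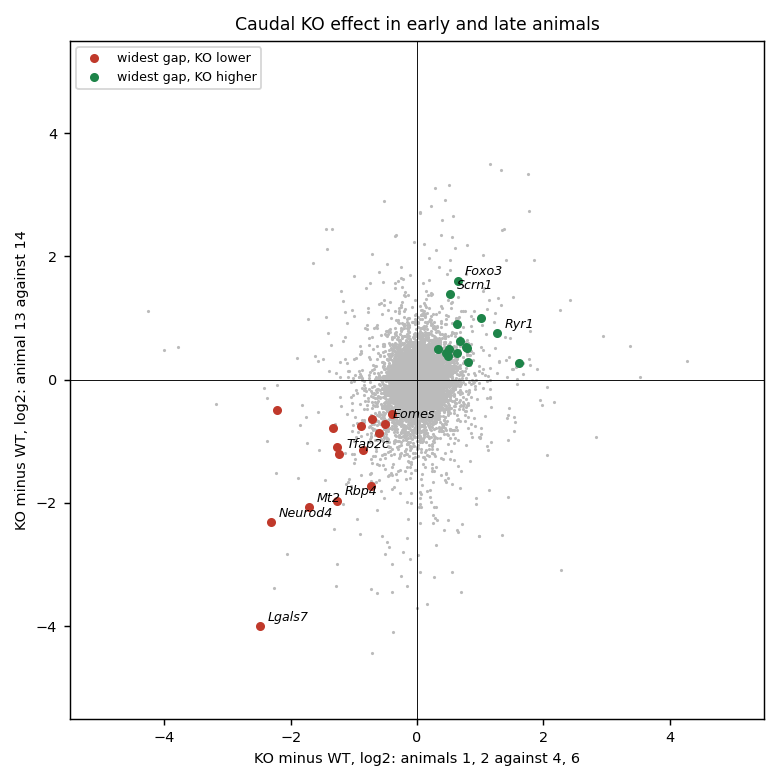
KO minus WT difference (log2) among animals 1, 2, 4 and 6 (x axis) and between animals 13 and 14 (y axis) for the tested genes, each a grey point; 1 gene lies outside the axes. Coloured points are the 15 lower and 15 higher genes with the widest gaps, which lie at lower left and upper right because their selection required it.

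At the level of gene groups, 40 lists of genes were read by counts and medians, beside all tested genes, of which 50.5% were lower in KO, 7.52% were separated in either direction and the median difference was -0.002. In these tissue pieces, fewer cells of a type and less RNA per cell cannot be told apart. The sign of the median was kept under every alternative run for 11 of the 40 lists, and for 25 it changed when 1 caudal array was left out. No list member other than Tfap2c, Neurod4 and Mt2 passed the test in the fit with the late block, and none passed without it.

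The basal progenitor list was chosen with earlier results of these data known, and it holds Neurod4 and Eomes, named above for their wide gaps. Of its 24 tested genes, 15 were lower and 9 higher. Of the 24, 7 (29.17%) were separated, beside 7.52% of all tested genes, and 6 of the 7 were lower. Besides Neurod4 and Eomes these were Neurod1, another proneural factor, at -0.27 ± 0.11, Slc17a6, a vesicular glutamate transporter, at -0.21, Btg2, an antiproliferative gene of neurogenic divisions, at -0.20 ± 0.10, and Rasgef1b, a Ras exchange factor, at -0.13. Neurod1 was separated on 1 of 2 tested probe sets. Cdkn1c, the inhibitor p57 of cell cycle entry, was the separated member on the higher side, at 0.32 ± 0.14. The other members held the list's centre near 0. Neurog2, the proneural factor upstream of Eomes, read 10.47, 10.49 and 10.49 in KO and 10.99, 10.67 and 10.39 in WT and overlapped. The median of the list was -0.05, and its mean signal was 9.65, 9.67 and 9.55 in KO and 9.92, 9.77 and 9.64 in WT, so KO 1 and KO 2 were higher than WT 14.

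Radial glia and cell cycle genes showed small shifts, with few separated members among radial glia and mitosis genes, beside 7.52% of all tested genes. With 1 array left out, the medians ran from -0.12 to 0.06 for radial glia, from -0.18 to 0.03 for DNA replication and from -0.20 to 0.08 for mitosis. Of 32 radial glia genes, 21 were lower and 11 higher with a median of -0.07, and 1 was separated, the glutamate transporter Slc1a3. It was higher in KO at 9.23, 9.46 and 9.26 against 8.49, 8.64 and 9.07, and separated on 2 of 4 tested probe sets. Pax6 and Sox2 differed by -0.01 ± 0.09 and -0.05 ± 0.15. A dimmer probe set of Pax6 was separated and lower, at -0.38, and its remaining ones overlapped, at 0.045 and 0.175. Of 24 Notch pathway genes, 15 were lower with a median of -0.08. Rfng, a modifier of Notch receptors, was the separated member, at 0.29 ± 0.10, on 1 of 2 probe sets. Of 27 genes of DNA replication 20 were lower, with a median of -0.08. The separated ones were Gins1, at -0.12 ± 0.13, and Ccne2, at 0.16 ± 0.15. Of 32 genes of mitosis 24 were lower, with a median of -0.06. None of the mitosis genes was separated. The median of the mitosis list was -0.10 among the first 4 arrays and 0.03 between the late pair, and WT 4 was the highest of all 6 arrays for 28 of the 32 genes, beside 20.6% of all tested genes. Among 12 regulators of cell cycle entry and exit, 8 were higher, and the separated ones were Cdkn1c and Ccnd1. Ccnd1, cyclin D1, read 9.63, 9.71 and 9.71 in KO and 9.23, 9.38 and 9.19 in WT, a difference of 0.42 ± 0.10 (limma adjusted p = 0.689). It was separated on 2 of 3 tested probe sets.

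**Figure D3:**
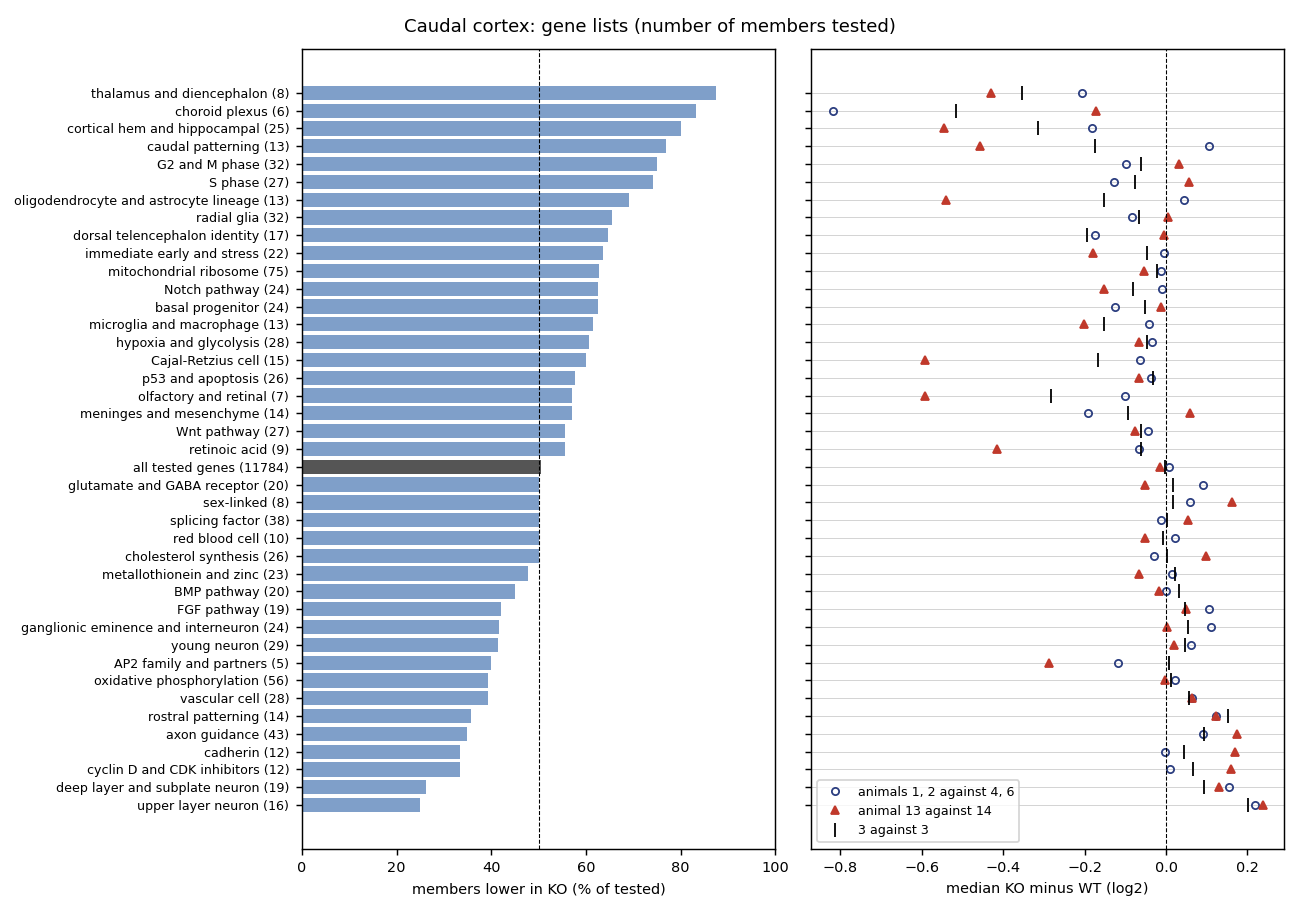
Share of tested members lower in KO (left, percent; dashed line at 50) and median KO minus WT difference (right, log2) for 40 gene lists and all tested genes (dark bar), with the number of members tested in brackets. Circles are the median among animals 1, 2, 4 and 6, triangles between 13 and 14, and ticks over 3 against 3; hem and choroid plexus genes are among the lowest and upper layer genes the highest.

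Of 16 upper layer genes 12 were higher, with a median of 0.20, the highest median of the 40 lists, with 0.22 among the first 4 arrays and 0.24 between the late pair. Pou3f1, a POU factor, read 9.01, 9.20 and 9.70 against 8.04, 8.94 and 8.73. Ptn, the growth factor pleiotrophin, read 11.49, 11.83 and 11.75 against 11.24, 11.25 and 11.14. Pou3f1 was separated on 1 of 2 tested probe sets and Ptn on 1 of 3, and the others were higher but overlapped. Cux2, the usual marker of upper layer neurons and their progenitors, read 9.55, 9.65 and 10.33 against 8.33, 9.24 and 9.93 and overlapped. Lmo4 was the separated member on the lower side. The mean signal of the list was 8.89, 8.99 and 9.10 in KO and 8.53, 8.94 and 8.90 in WT, so the low value of WT 4 carries much of the distance. Leaving out 1 array at a time moved the list's median between 0.06 and 0.30. Of 19 deep layer and subplate genes 14 were higher with a median of 0.09. Ldb2, a LIM-domain binding factor, was separated on 2 of 3 tested probe sets, at 8.25, 8.49 and 8.46 against 7.29, 8.10 and 7.92 on the first. Bcl11b and Tbr1, factors of deep layer neurons, overlapped and differed by 0.21 ± 0.12 and 0.10 ± 0.18. Of 29 genes of young neurons 17 were higher with a median of 0.05, which ran from -0.08 to 0.09 with 1 array left out, and Nrn1 was the separated one, on the lower side.

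Genes of the medial edge differed among the animals within each group. The cortical hem is a signalling centre beside the hippocampal field that secretes Wnt and BMP proteins. Of 25 tested genes of hem and hippocampus 20 were lower, with a median of -0.31, and 1 in each direction was separated. Nrp2, a semaphorin receptor, was the lower one, at 8.73, 8.16 and 7.97 against 8.94, 8.91 and 8.95, and Nkd1, a Wnt antagonist, the higher one, with a difference of 0.40 and a gap of only 0.01. Nkd1 was separated on 1 of 4 tested probe sets and Nrp2 on 2 of 3. The list mean was 7.54, 6.64 and 6.20 in KO 1, KO 2 and KO 13 and 7.44, 7.54 and 6.93 in WT 4, WT 6 and WT 14. KO 1 thus equalled the highest WT array, and KO 2 and KO 13 lay below all WT arrays. KO 1 was the highest KO array for 22 of the 25 genes (88.0%), beside 39.2% of all tested genes. Without any 1 of the arrays the median ran from -0.56 to -0.12.

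In single hem genes KO 1 was likewise the highest KO array. Wnt8b, a ligand of the hem, read 6.20, 3.94 and 4.11 in KO and 6.79, 7.06 and 4.85 in WT. Wnt3a, the hem ligand needed for hippocampal growth, chosen after its values were seen, read 5.30, 0.66 and 1.70 against 4.96, 5.52 and 5.09. For Wnt3a, KO 1 alone lay inside the WT range, and the others were far under the median of the table. Id3, an inhibitor of helix-loop-helix factors that BMP signals induce, read 7.27, 5.95 and 5.92 against 7.21, 7.34 and 6.81. Again KO 1 was inside the WT range. The amount of medial tissue in each piece was not measured and its part in these values was not tested. Of 27 Wnt pathway genes 15 were lower (median -0.06). Tcf7l1, a repressor of Wnt targets, was the separated one on the lower side, at -0.60 ± 0.17. Of 20 BMP pathway genes 11 were higher (median 0.03). Id2 and Smad7, targets of the pathway, were separated and higher, by 0.63 ± 0.14 and 0.77 ± 0.20, and the receptor Acvr2b was separated and lower, at -0.19 ± 0.16. Id2 was separated on 1 of 3 tested probe sets, and Smad7 and Acvr2b on 1 of 2 each. The second Acvr2b probe set differed by 0.15 in the other direction.

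**Figure D4:**
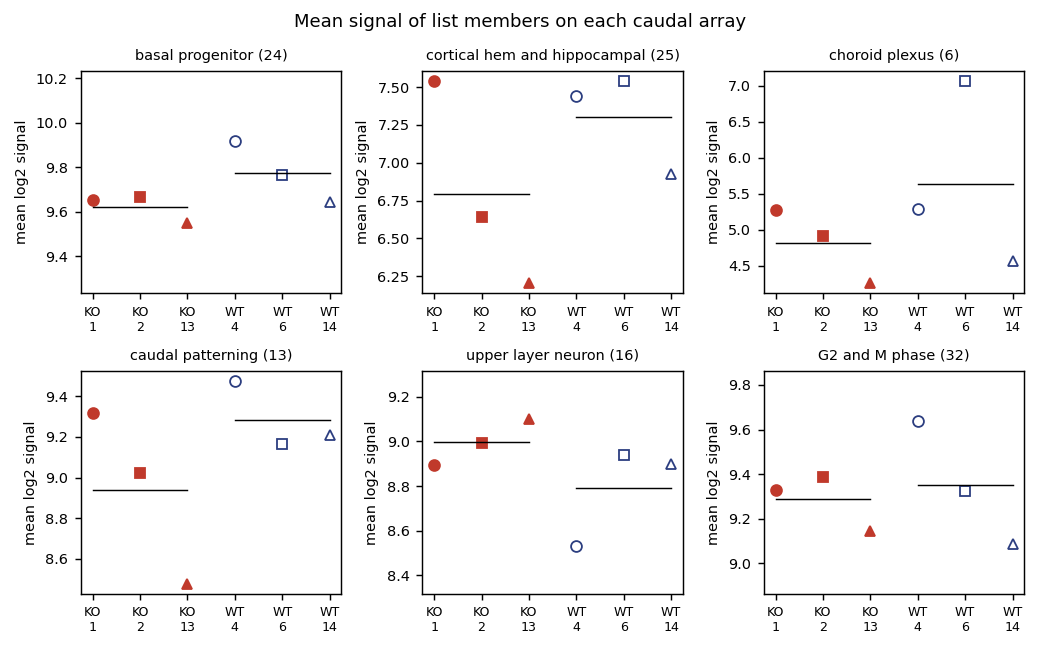
Mean log2 signal of the tested members of 6 gene lists on each caudal array (symbols; KO filled, WT open; horizontal lines are group means; brackets give the number of members). In the hem panel KO 1 sits with WT 4 and WT 6, and in the choroid plexus panel WT 6 stands above the other 5 arrays.

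Other tissue neighbours varied by single arrays. Of 6 tested choroid plexus genes 5 were lower (median -0.52) and 0 were separated. WT 6 was the highest array for 5 of the 6, beside 23.2% of all tested genes. The list mean was 7.07 in WT 6 and 4.26 to 5.28 on the other 5 arrays. Otx2, a factor of choroid plexus and diencephalon, read 7.00 in WT 6 and -0.67 to 1.61 elsewhere. Its difference therefore rested on WT 6. Ttr, the transthyretin gene that marks the choroid plexus, was not among the tested genes. Of 8 genes of the neighbouring diencephalon 7 were lower (median -0.35) with 0 separated. KO 13 was the lowest KO array for all 8, beside 51.2% of all tested genes. Of 7 genes of eye and olfactory epithelium 4 were lower and 0 separated. Of 24 genes of ganglionic eminence and interneurons 14 were higher (median 0.05), with 1 separated lower and 2 separated higher, among them Slc32a1, the vesicular GABA transporter, at 0.77 ± 0.31.

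Of 15 Cajal-Retzius cell genes, those of the early neurons at the cortical surface, 9 were lower, with a median of -0.17. Calb2 and Eomes were separated and lower, and Spock1, a secreted proteoglycan, was separated and higher, on 1 of its 2 tested probe sets. Reln and Trp73, the defining markers of these cells, chosen after their values were seen, overlapped and differed by -0.27 and -0.41. Eomes belongs both to this list and to that of basal progenitors. The list's median was -0.06 among the first 4 arrays and -0.59 between the late pair, and KO 13 was the lowest KO array for 12 of the 15 genes, beside 51.2% of all genes.

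Patterning genes along the axis of the cortex gave no separated gene on the caudal side. Of 13 genes high towards the caudal pole 10 were lower, with a median of -0.18, and KO 1 lay inside or above the WT range for all 13. Over all tested genes KO 1 lay below every WT array in only 14.6%. Crym, a thyroid hormone binding protein of caudal cortex, read 7.77, 7.34 and 4.25 in KO and 8.50, 7.39 and 8.35 in WT, where KO 13 was more than 3 log2 below the other KO arrays. The list's median was 0.10 among the first 4 arrays and -0.46 between the late pair. Of 14 genes high towards the rostral pole 9 were higher (median 0.15). Lmo4 was separated and lower and Meis2, a homeobox factor, separated and higher, by 0.19 ± 0.09. Meis2 was separated on 2 of 4 tested probe sets, while the others overlapped and differed by -0.02 and -0.11. Of 17 genes of pallial identity 11 were lower (median -0.19), and the 2 separated were Tfap2c and Eomes. Emx1 and Emx2, homeobox factors of the pallium, overlapped and differed by -0.37 ± 0.21 and 0.15 ± 0.27. A dimmer probe set of Emx1 was separated and lower, at -0.63.

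Lists of other cell types that a piece of cortex can hold had 0 to 2 separated members. The lists are short, and 7.52% of all tested genes were separated. Of 28 vascular genes 17 were higher, of 13 microglia genes 8 were lower, and of 10 red blood cell genes 5 were lower, with 0 separated in each list. Of 14 genes of meninges and mesenchyme 8 were lower and 2 were separated and higher, Vtn and Col6a2, each on 1 of 2 tested probe sets. WT 6 was the highest WT array for 12 of the 14, beside 39.6% of all tested genes. Of 13 genes of glia 9 were lower, and the separated member was Olig2, which was below 5.21 on all 6 arrays. Among 8 tested sex-linked genes the separated one was Kdm5d, a Y-linked gene, at 1.23 in WT 6 and 7.51 to 8.07 on the other arrays.

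Metabolic lists held small shifts. Of 28 genes of glycolysis and the response to low oxygen 17 were lower, and the 3 separated were the glycolytic enzymes Aldoa, Ldha and Pkm. Aldoa read 10.21, 10.21 and 10.21 in KO and 10.45, 10.69 and 10.30 in WT, Ldha 11.37, 11.13 and 11.02 against 11.66, 11.40 and 11.41, and Pkm 11.11, 10.75 and 10.93 against 11.21, 11.12 and 11.11. For Aldoa 4 of 5 probe sets were separated, and for Ldha and Pkm the nearest arrays touched within 0.03. Of 56 respiratory chain genes 34 were higher (median 0.01), with 1 separated lower and 5 higher, and of 75 genes of the mitochondrial ribosome 47 were lower (median -0.02), with 1 separated lower and 3 higher. KO 13 was the lowest KO array for 59 of these 75, beside 51.2% of all tested genes. Of 26 genes of cholesterol synthesis 13 were lower, of 38 splicing factors 19 and of 26 genes of p53 and cell death 15, with 3, 2 and 4 separated. Of 22 immediate early and stress genes 14 were lower and 2 separated.

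Among signalling and adhesion lists, 28 of 43 axon guidance genes were higher, with a median of 0.09, 2 separated lower and 4 higher. Robo1, a receptor of Slit proteins, read 9.09, 9.33 and 9.50 in KO and 8.44, 8.88 and 8.75 in WT, and its ligand Slit2 8.19, 7.91 and 7.28 against 8.78, 8.21 and 8.37. On these probe sets receptor and ligand differed in opposite directions, though for Slit2 the nearest arrays were 0.01 apart. The second Slit2 probe set overlapped and differed by 0.01, and that of Robo1 overlapped and differed by 0.45. Of 9 retinoic acid genes 5 were lower, and the separated ones were Rbp4 and Cyp26b1. Of 19 FGF pathway genes 11 were higher, and Fgf18, a ligand, was among the 2 separated, at 5.62, 5.55 and 5.36 in KO and 4.66, 2.95 and 5.13 in WT, at least 1.23-fold higher. Of 20 glutamate and GABA receptor genes 10 were lower. Gabra2, a GABA-A receptor subunit, read 8.18, 7.27 and 7.10 against 8.43, 8.29 and 8.46, where KO 1 again lay nearest to WT. The gene was separated on 1 of 3 tested probe sets. Of 12 cadherins 8 were higher and 0 separated.

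The spread within groups was also ranked. Within KO the 3 genes of largest standard deviation were Fam243, Gm10033 and 4933406F09Rik, each with arrays between 0.22 and 5.91 and none with separated groups. Within WT they were Xist, Eif2s3y and Otx2, in all of which WT 6 was the array apart.

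Neighbours of Tfap2c on its chromosome were read as a description of the locus. Of the 15 tested genes on each side, 18 were lower and 12 higher, with a median of -0.06. The largest difference was that of Sall4, a zinc finger factor, at 4.17, 5.52 and 5.41 in KO and 1.55, 4.64 and 2.07 in WT, which overlapped and differed by 2.28 ± 0.66 (limma adjusted p = 0.916). The 2 separated genes were both lower, and all 3 were named after their values were seen. Fam209, the nearest tested gene on one side, read 3.28, 2.998 and 5.005 in KO and 5.57, 5.45 and 5.30 in WT, and Gnas, a G protein subunit, differed by -0.05. Fam209 was under 5.21 on every KO array and a little above it on every WT array. In rostral cortex Fam209 overlapped between groups and differed by 0.13.

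In rostral cortex, from other animals, 303 of the 433 lower genes (70.0%) and 263 of the 453 higher genes (58.1%) differed in the same direction, and 80 and 59 were separated in the same way. Of all tested genes 55.0% were lower and 45.0% higher in rostral KO. Another 11 and 18 were separated in the opposite way. Neurod4 differed by -2.21 ± 0.32 and Eomes by -0.55 ± 0.12 in rostral cortex, next to -2.31 and -0.58 in caudal cortex. For both genes all rostral KO arrays lay below all rostral WT arrays. Tfap2c differed there by -0.59 ± 0.19 with overlap, Mt2 by -0.57 ± 0.28 and Lgals7 by -0.25 ± 0.54. Tmem163 was higher in rostral KO, by 0.24, and separated there too, and Mrpl57 likewise by 0.21. Calb2 was higher by 0.31 and overlapped.

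The difference between regions was itself tested as an interaction. Over all 11784 genes 0 passed an adjusted p of 0.05 in limma, 357 had an unadjusted p under 0.05, and the smallest adjusted p was 0.341. Unadjusted limma p-values were 0.00012 for Mrpl57, 0.00025 for Tmem163, 0.0030 for Lgals7, 0.0042 for Calb2, 0.0068 for Mt2 and 0.036 for Tfap2c, and 0.83 for Neurod4 and 0.88 for Eomes. A regional difference is therefore not shown for any of these genes after adjustment. Of the 15 lower genes with the widest gaps 13 were also lower in rostral KO and 5 of them separated, and of the 15 higher genes 9 were also higher and 3 separated.

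**Figure D5:**
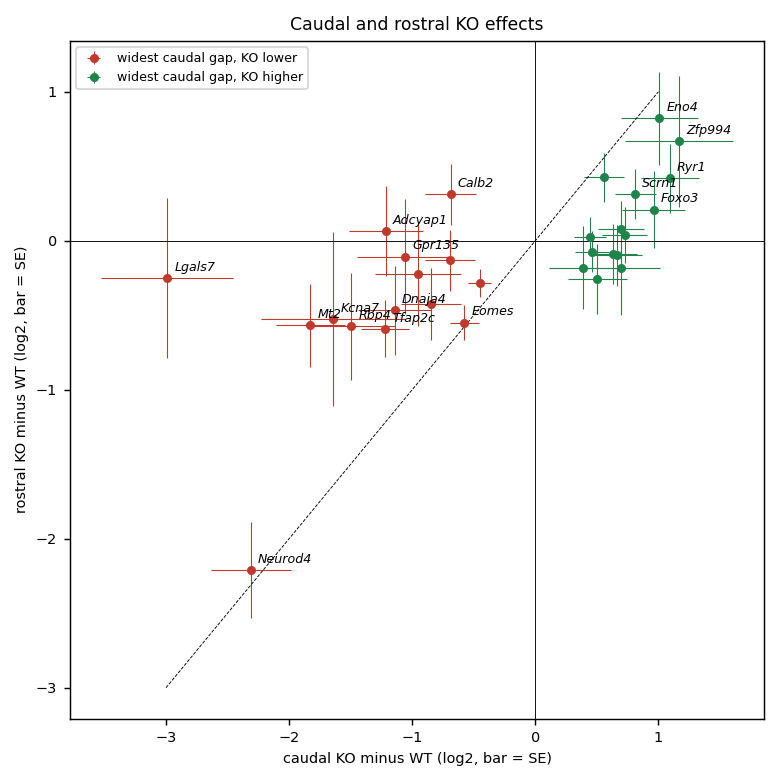
KO minus WT difference (log2) in caudal cortex (x axis) and rostral cortex (y axis) for the 15 lower and 15 higher genes with the widest caudal gaps; bars are standard errors from the limma fit and the dashed line marks equal differences. The genes are those whose higher group lies above the table's median; Neurod4 and Eomes lie close to the line, while Lgals7 and Mt2 lie well above it.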

How the data were processed

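RNA from cortex of mouse embryos at embryonic day 14 was amplified from 400 ng of total RNA and labelled with biotin, per the labels' protocols, and hybridised to 1-colour oligonucleotide arrays, 1 per animal. The authors deposited 1 log2 value for each of 45101 probe sets. The log2 scale is read from the values (-3.81 to 14.02), whose quartiles are nearly equal on all arrays. Background correction, normalisation and summarisation are not given in the sources used here. Of the probe sets, 34945 name 1 gene in the platform annotation, 932 name several and 9224 none, and the last 2 kinds were not used by gene.

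Of several tested probe sets, the one of highest mean stood for the gene. One limma 3.58.1 fit (R 4.3.3) held 12 arrays with 1 mean per group and trended moderation (8 residual and 5.37 prior degrees of freedom). P-values are two-sided and Benjamini-Hochberg adjusted over 11784 genes, with a threshold of 0.05. A gene is called separated when the 3 KO and 3 WT values do not overlap. Genes at or below 5.21 on all arrays of a group get a fold bound, with values raised to 5.21. Tested on simulated data of this comparison with 11784 genes, 200 of them changed, the fit called 73% of 1-log2 and 95% of 2-log2 changes. It made 6 false calls. The simulated noise was independent between arrays, without the shared deviation of late animals, and its spreads were reassigned among genes. These shares therefore need not hold for the real arrays.

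The members and gene lists were chosen with earlier results of these data known. Named genes are the 15 lower and 15 higher separated genes of widest gap whose higher group lies above the table's median, the 10 of smallest p, up to 4 separated members (else 2 of smallest p) per list, a set of AP2 and cortical markers, genes called with the late-animal block and the 3 of widest spread in each group. Other genes are said to have been chosen after their values were seen. Alternatives covered the late-animal block, caudal arrays only, animals 1 to 12 only, quantile normalisation, median centring, a floor, 3 filters, 2 ways to combine probe sets, moderation, weights, a Xist covariate, a threshold of 0.10 and each array left out. Added after seeing the data were the block on 6 caudal arrays, a covariate for the 2 arrays with Xist above 10, and a fit without those arrays. Promoter windows came from RefSeq (GRCm38.p6).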

Additional observations from a re-analysis of the deposited data

How the results depend on the processing

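The count of genes past an adjusted p of 0.05 in limma was 0, and it was 4 with the late-animal block, 1 with the Xist covariate, 3 at a threshold of 0.10 and 0 to 1 with each of the 12 arrays left out. It was 0 under every other alternative run, including the 3 added after seeing the data. The counts with no overlap, 433 lower and 453 higher, were 742 and 748 with no filter, 282 and 298 with the filter at the 75th percentile, and 908 and 889 over every tested probe set, where the number of features tested differs. With 1 caudal array left out they ran from 701 to 1586 and from 697 to 1295, where fewer arrays have to be apart. No paired analysis was possible because no animal number is shared between groups.

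Directions changed mainly for genes that overlap between groups or are dim, and the cause was not tested. With animals 1 to 12 only, 4933406F09Rik differed by 0.46, Reln by 0.0076, Tbr1 by -0.21 and Tfap2d by -0.12. With values raised to the median, 4933406F09Rik gave 0.11, Fam243 0.23 and Olig2 0.0. With array weights, 4933406F09Rik gave 0.75, Pax6 0.0057, Tbr1 -0.021 and Tfap2d -0.11. With the Xist covariate, 4933406F09Rik gave 0.57, Eif2s3y -0.43, Kdm5d -0.28, Neurog2 0.057, Pax6 0.028, Rasgef1b 0.026, Sox2 0.16, Tfap2d -0.31 and Xist 1.99, and with the covariate for high Xist, Gm10033 gave 0.086 and Xist 0.14. The mean of all probe sets gave Gnas 0.039 and Rfng -0.033. With 1 array left out, 4933406F09Rik ran from -1.37 to 1.18, Emx2 from -0.087 to 0.50, Fam243 from -1.80 to 0.67, Gm10033 from -2.49 to 0.89, Pax6 from -0.048 to 0.046, Reln from -0.62 to 0.091, Sox2 from -0.20 to 0.056, Tbr1 from -0.087 to 0.23 and Tfap2d from -0.33 to 0.23. Of the 40 list medians, 29 changed sign under at least 1 alternative and 25 with 1 caudal array left out, while quantile normalisation and median centring turned 2, those of glutamate and GABA receptors and of splicing factors. Array number and signal near the table's median limit precision.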
